A study of Sus scrofa with 4 samples.

Results

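Single cells of pig meniscus were examined for 10 inflammatory NF-kappaB target genes: IL6, LIF, PTGS2, TNFAIP3, TNFAIP6, NFKBIA, NFKBIZ, SOD2, ICAM1 and VCAM1. They were taken by symbol, with earlier results of these data known, and all 10 were found among the 21280 gene features. The study dissociated the fibrocartilage of lateral and medial pig menisci, cut away from the synovium, after separating a red from a white zone. Droplet-based 3' sequencing gave 4 libraries, 1 for each meniscus and zone: lateral red, medial red, lateral white and medial white. The labels give no breed, age, sex, treatment or animal, and do not say whether a library holds 1 animal or several. The 2 libraries of a zone serve as its replicates, so p-values measure no spread between animals. With 1 residual degree of freedom, the spread used for each gene is largely borrowed from all genes tested.

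NF-kappaB is a family of dimeric transcription factors held in the cytoplasm by inhibitor proteins until signals such as interleukin-1, tumour necrosis factor or tissue injury lead to the inhibitors' degradation. The freed dimers switch on cytokines, prostaglandin synthesis and adhesion molecules for leukocytes, together with inhibitors that end the response. In the meniscus the outer red zone carries blood vessels and the inner white zone is cartilage-like and largely without them, and interleukin-1 signalling in meniscal cells is known to drive matrix breakdown. Enzymatic release of cells from tissue can itself induce genes of this kind.

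By role, IL6 (chr9:91506421-91510830) and LIF (chr14:47221540-47239513) are secreted cytokines of the family that signals through gp130. TNFAIP6 (chr15:862013-881352) is the secreted hyaluronan-binding protein TSG-6, and PTGS2 (chr9:127850164-127858866) is cyclooxygenase-2, the inducible enzyme of prostaglandin synthesis. NFKBIA (chr7:64508119-64510754), NFKBIZ (chr13:157261419-157273119) and TNFAIP3 (chr1:26474158-26489771) act on the pathway itself, as the classical inhibitor IkappaB-alpha, the nuclear co-regulator IkappaB-zeta and the ubiquitin-editing inhibitor A20. ICAM1 (chr2:69097136-69107722) and VCAM1 (chr4:117496914-117511211) are adhesion molecules that bind leukocyte integrins, and SOD2 (chr1:7679352-7689564) is the mitochondrial superoxide dismutase. Positions are RefSeq gene spans on Sscrofa11.1.

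After filtering, the lateral red, medial red, lateral white and medial white libraries held 5701, 6803, 7382 and 7807 cells with 9612276 to 14902274 UMIs (unique transcript counts) each, and values are given in this order. A cell's median UMI count was 1473 to 1617 and the median mitochondrial share 1.82 to 2.53%, and any 2 libraries shared 10 to 20 barcode sequences. Cells were grouped by counts of marker genes, with at least 3 UMIs from at least 2 markers of 1 cell type, and are called by their group. The endothelial group held 848, 904, 154 and 263 cells, the mural group (smooth muscle and pericyte markers) 606, 666, 47 and 53, and the myeloid group 539, 596, 67 and 50. T or NK cells numbered 72 and 58 and B or plasma cells 99 and 15 in the red libraries, against 1 cell of these types in both white libraries. The fibroblast group held 966 and 2100 red but 22 and 8 white cells, while the cartilage group held 74 and 35 red but 3489 and 2935 white cells. Between 33 and 279 cells per library carried markers of more than 1 group and 2150 to 4465 fell in no group. Markers of the labelled tissue were present. Over the markers used to group cells, which leave out genes common in every library, cartilage markers summed to 387, 85.0, 7237 and 7937 CPM. CPM are UMIs per 1000000 UMIs of the library or cell group. Fibroblast markers so summed reached 1614, 2935, 107 and 79.7 CPM. Over whole lists, cartilage markers summed to 836, 372, 10549 and 10714 CPM. The whole fibroblast list ran the other way, at 15223, 19566, 26490 and 68816 CPM, highest in the white libraries.

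Over all cells, 8 of the 10 genes were lower and 1, SOD2, was higher in the white than in the red zone, and TNFAIP6 did not pass the test. IL6 showed the widest gap and PTGS2 the narrowest among the genes that passed. The test was edgeR's quasi-likelihood test on UMIs summed per library, with meniscus as a second term and Benjamini-Hochberg adjustment over 12481 genes, and a gene passed at an adjusted p below 0.05. The zones differed in many genes: 39.3% of all genes tested passed, 17.4% as higher and 21.8% as lower in white, and the 9 of 10 stand beside that share. The median log2 fold change of all 10 genes, white minus red, was -1.38, against -0.0049 over all genes. With plain library totals in place of TMM scaling, which moved the median of all genes to -0.50 and the split of all passing genes from 2175 higher and 2726 lower to 915 higher and 5195 lower, the same 9 genes passed in the same directions. In sums over all cells, fewer cells of a type and less RNA per cell cannot be told apart.

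Among the secreted factors, IL6 stood at 149 and 81.5 CPM in the red and 6.78 and 1.48 in the white libraries. Both red libraries lay above both white libraries, and within each zone the lateral library was the higher. The log2 fold change was -4.49 ± 0.33, with an adjusted p of 9.15e-05. Values after ± are standard errors. LIF was at the edge of detection, with 10, 22, 3 and 2 UMIs in all, or 1.04 and 1.86 CPM in the red and 0.219 and 0.134 in the white libraries. Its log2 fold change of -2.50 ± 0.70 passed (adjusted p = 0.0257), but not with DESeq2 (0.185) or without the lateral red (0.0519), medial red (0.221) or medial white library (0.0801). TNFAIP6 stood at 223 and 163 CPM in the red and 168 and 201 in the white libraries. The zones overlapped, and the log2 fold change was 0.44 ± 0.21 (adjusted p = 0.143), or -0.054 without TMM scaling.

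PTGS2 stood at 116 and 99.1 CPM in the red and 53.6 and 38.8 in the white libraries, a gap without overlap that was smaller than that of IL6. Its log2 fold change was -0.74 ± 0.17 (adjusted p = 0.0127). The call did not hold without the lateral red library (-0.58, adjusted p = 0.204), the medial red library (-0.85, 0.0705) or the medial white library (-0.45, 0.0829). SOD2 ran the other way, at 714 and 503 CPM in the red and 2472 and 1233 in the white libraries. Both white libraries lay above both red ones, the lateral white library highest of all, and the log2 fold change was 2.03 ± 0.29 (adjusted p = 0.00156).

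The genes that act on the pathway itself, NFKBIA, NFKBIZ and TNFAIP3, were all lower in the white zone, beside 21.8% of all genes tested. NFKBIA stood at 1121 and 871 CPM in the red and 315 and 215 in the white libraries, a log2 fold change of -1.43 ± 0.23 (adjusted p = 0.00244). NFKBIZ stood at 329 and 349 CPM in the red and 125 and 114 in the white libraries and changed by -1.02 ± 0.19 (adjusted p = 0.00530). TNFAIP3 stood at 57.2 and 46.8 CPM in the red and 7.73 and 6.44 in the white libraries. It had the steepest fall of these genes, -2.38 ± 0.19 (adjusted p = 0.000117). The adhesion molecules fell too. ICAM1 stood at 75.9 and 66.9 CPM in the red and 27.8 and 14.7 in the white libraries, with a log2 fold change of -1.32 ± 0.23 (adjusted p = 0.00349), or -0.81 without the medial white library (adjusted p = 0.00385). VCAM1 stood at 259 and 219.9 CPM in the red and 44.2 and 21.9 in the white libraries and changed by -2.44 ± 0.24 (adjusted p = 0.000322), with the medial white library the lowest.

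**Figure D1:**
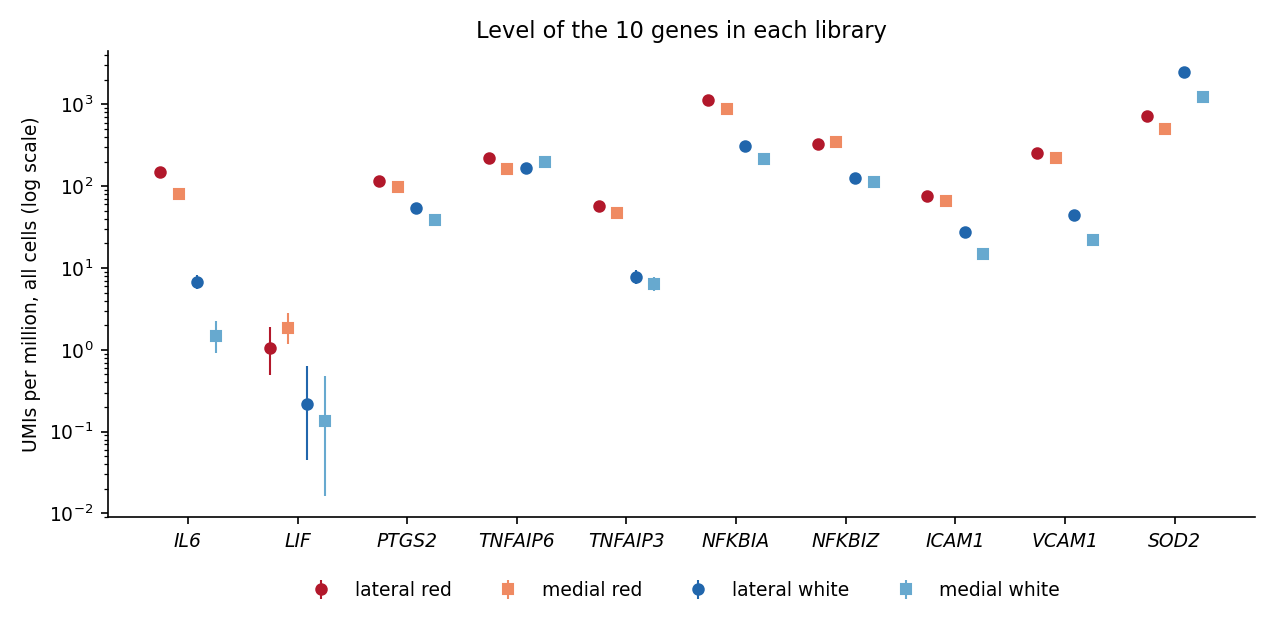
CPM of each gene over all cells (vertical axis, log scale) in the 4 libraries, with exact 95% Poisson intervals that cover counting error only. IL6 fell from 149 and 81.5 in the red to 6.78 and 1.48 in the white libraries, SOD2 was higher in both white libraries, and TNFAIP6 overlapped between zones.

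Counted as cells, IL6 was a minority transcript even where it was high. An IL6 UMI was found in 10.2, 8.44, 0.718 and 0.218% of cells, and in 7.52, 5.76, 0.456 and 0.131% after each cell was thinned to 1000 UMIs. In the red libraries the 1% of cells with most IL6 held 39.4 and 31.2% of its UMIs, and 1 cell of the lateral red library held 29. PTGS2 was found in 10.5, 9.94, 5.35 and 3.95% of cells and VCAM1 in 25.05, 22.4, 5.03 and 2.51%. After thinning these were 7.78, 6.95, 3.37 and 2.33% for PTGS2 and 18.4, 16.1, 3.23 and 1.17% for VCAM1. NFKBIA was found in 62.4, 55.4, 34.3 and 23.1% of cells, or 51.0, 43.5, 22.0 and 14.8% after thinning. SOD2 was found more often in the white zone, at 48.2, 41.1, 72.4 and 59.9% of cells, or 40.8, 32.5, 67.3 and 48.0% after thinning. Exact 95% binomial intervals of the unthinned shares reach at most 1.31 percentage points from the value over all cells and 14.7 points in marker groups of at least 50 cells, and cover counting error only.

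The genes were spread over different cell types of the red zone. Fibroblast, mural and endothelial cells held 37.0 and 29.5%, 18.9 and 23.3% and 14.9 and 18.3% of the red IL6 UMIs. The same groups held 20.2 and 34.8%, 11.7 and 10.3% and 12.7 and 14.2% of all red UMIs. The IL6 level was 240.5 and 184 CPM in the mural group of the lateral and medial red library. It was 273 and 69.1 in the fibroblast group and 175 and 105 in the endothelial group, against 149 and 81.5 over all cells. The fibroblast level differed most between the red libraries, and 19.1 and 19.5% of mural cells held a UMI. Myeloid cells, at 22.2 and 8.97, were low, and no IL6 UMI was found in 72 and 58 T or NK cells, which allows shares of up to 4.17 and 5.17% (3 cells of the total), nor in 99 and 15 B or plasma cells. A T or NK cell had a median of 779.5 and 904 UMIs against 1573 and 1655 for a mural cell. Of the 10 and 22 LIF UMIs of the red libraries, 5 and 12 lay in fibroblast cells.

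PTGS2 was highest in the endothelial group of the red zone, at 290.2 and 201 CPM, followed by the fibroblast group at 117 and 106 and the mural group at 70.1 and 63.1. The endothelial group held 31.6 and 29.0% of the red PTGS2 UMIs. In the white zone, where this group was small, 54.6 and 36.7% lay in the cartilage group, at 50.3 and 33.8 CPM. TNFAIP6 was highest in matrix-producing cells, at 498 and 314 CPM in red fibroblasts and 173 and 222 in white cartilage cells, but 26.3 and 14.2 in red endothelial cells.

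Of the genes that act on the pathway itself, TNFAIP3 was highest in immune cells. It stood at 173 and 151 CPM in red myeloid cells, 213 and 101 in red T or NK cells and 32.9 and 19.4 in red fibroblasts. The T or NK values rest on 72 and 58 cells with 79865 and 69561 UMIs of all genes, so on few TNFAIP3 UMIs. NFKBIA was highest in red endothelial cells, at 2225 and 1596 CPM, with 1237 and 1214 in myeloid and 932 and 623 in fibroblast cells. NFKBIZ was highest in the same red group, at 557 and 547, and in the white libraries in myeloid cells, at 541 and 565. ICAM1 was highest in red endothelial cells, at 240.0 and 214 CPM, followed by red myeloid cells at 155 and 128. The endothelial group alone held 40 and 45.6% of its red UMIs. VCAM1 was spread more widely, with 558 and 593 CPM in red myeloid, 431 and 228 in endothelial, 283 and 288 in mural and 249 and 163 in fibroblast cells. In T or NK cells, taken as a gauge of free RNA, VCAM1 was found in 1.39 and 0%, PTGS2 in 0 and 0% and TNFAIP6 in 1.39 and 1.72% of the red cells, where a 0 has the limits given above for IL6.

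SOD2 was found in each group of at least 50 cells, and its leading group differed between libraries. The cartilage group of the white libraries held 2299.7 and 1174 CPM and white cells in no group 2886 and 1348. Red fibroblasts held 771 and 462 and red mural cells 195 and 149. White myeloid cells held 1534 and 1542, below the cartilage group in the lateral and above it in the medial library. Red myeloid cells held 1050.4 and 790.2, and the 74 cartilage cells of the lateral red library 1557.

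**Figure D2:**
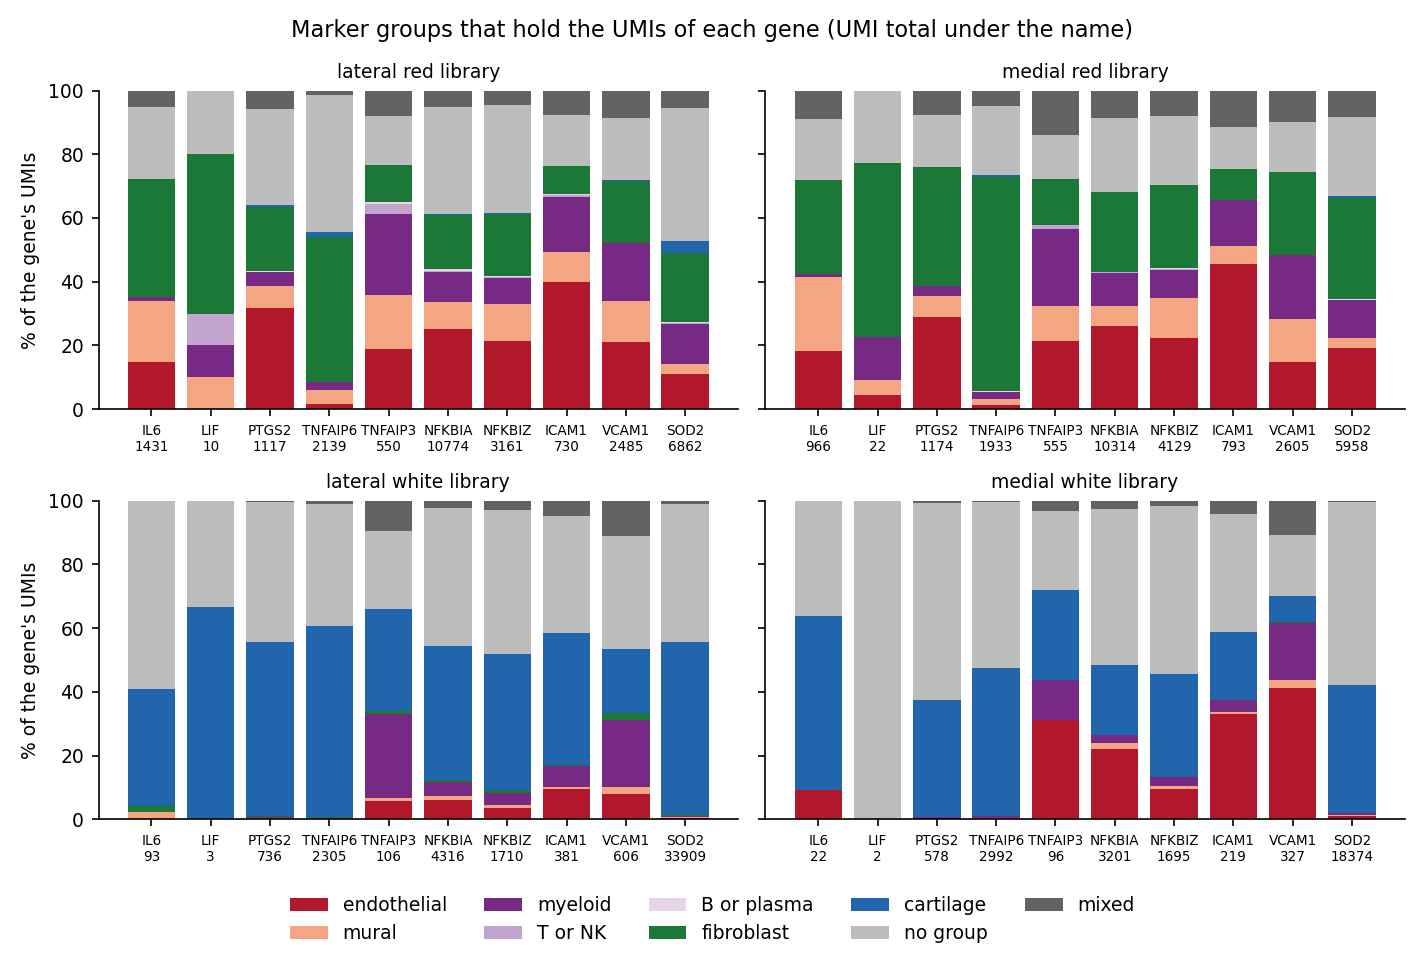
Share of each gene's UMIs (vertical axis, %) that lay in each marker group, 1 panel per library, with the gene's UMI total under its name. ICAM1 and PTGS2 drew 40 and 45.6% and 31.6 and 29.0% of their red UMIs from the endothelial group, TNFAIP6 1.50 and 1.24%, and in the white libraries the cartilage group and cells in no group held most UMIs of most genes.

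**Figure D3:**
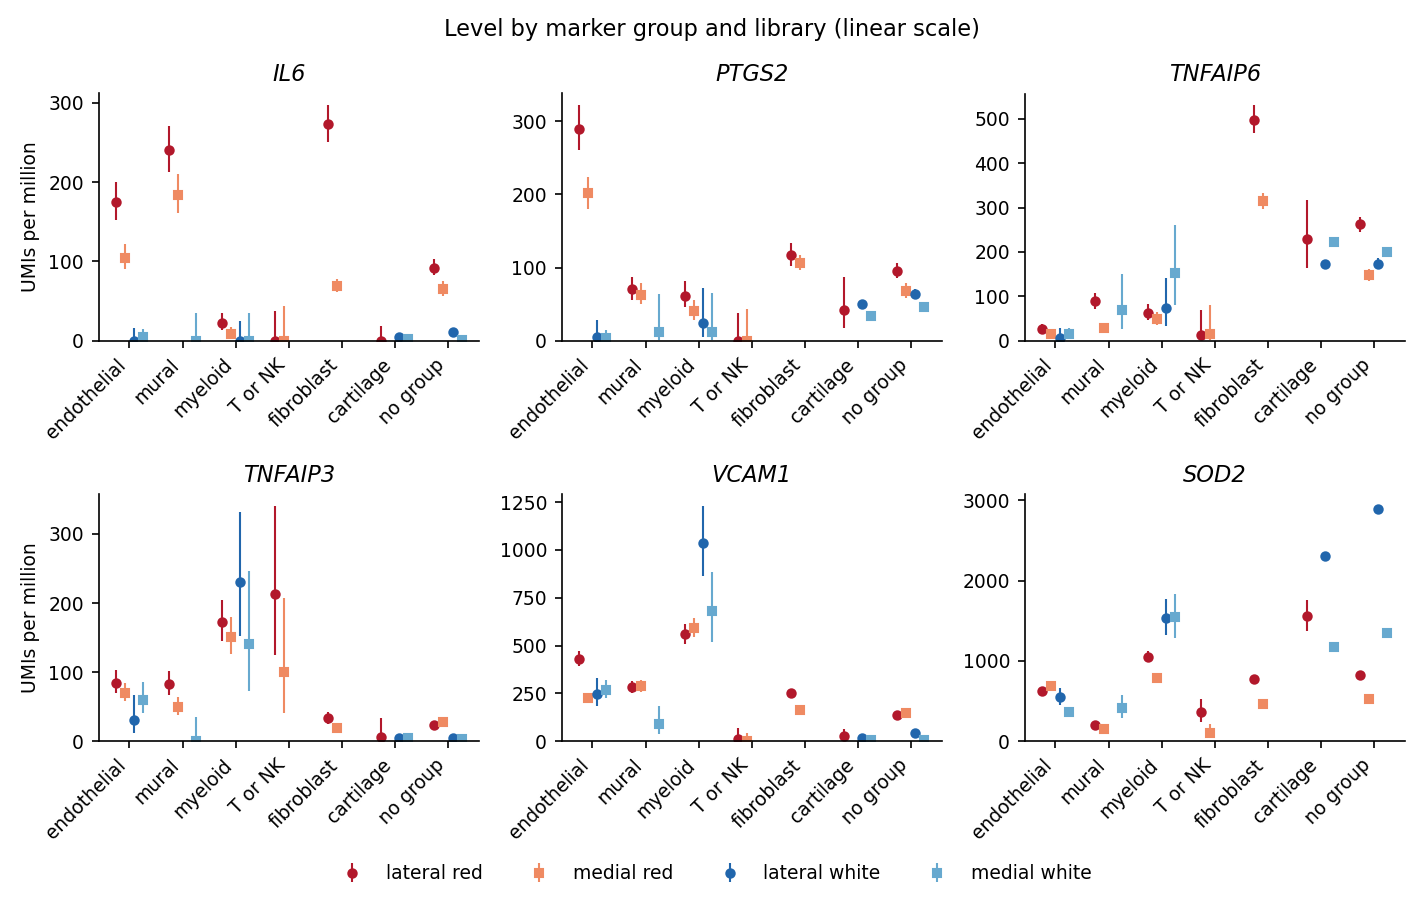
CPM of 6 genes (vertical axis, linear from 0) by marker group and library, with exact 95% Poisson intervals, or up to the limit of 3 UMIs where a group had 0. Groups of fewer than 50 cells in a library, B or plasma cells and cells with markers of several groups are left out. IL6 was led by red mural and lateral red fibroblast cells, PTGS2 by red endothelial cells, TNFAIP6 by fibroblast cells, VCAM1 by myeloid cells, TNFAIP3 by T or NK and myeloid cells, and SOD2 by cells in no group and cartilage cells in the lateral white library.

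Within the red libraries, cells with an IL6 UMI held the other genes in larger shares than cells without one. Of cells with an IL6 UMI, 25.7 and 26.1% held a PTGS2 UMI, against 8.82 and 8.44% of the other cells. VCAM1 was found in 44.9 and 43.6% of IL6-positive and 22.8 and 20.5% of other cells, and NFKBIZ in 48.7 and 49.3% against 32.1 and 33.8%. TNFAIP3 differed less, at 9.50 and 12.2% against 7.44 and 6.33%. The intervals of the shares among IL6-positive cells reach at most 4.17 points. IL6-positive cells were also deeper, with a median of 1623 and 1828 UMIs against 1452 and 1466. The part of depth and cell type in these shares was not tested, and no comparison between conditions was made from them.

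Endothelial cells were compared between zones on their own, since each library held at least 50 of them. PTGS2 and IL6 had 1 to 2 UMIs or none in white endothelial cells, while ICAM1 and VCAM1 were still present. Of 9 genes with enough counts, 3 were lower in white and 0 higher, against a background of 8.61% of 7116 genes, 4.83% lower and 3.78% higher (LIF had too few counts). Across all genes this fit called 269 higher and 344 lower, or 497 and 291 without TMM scaling, and the same number of the 9 genes passed.

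PTGS2 had 353, 340, 1 and 2 UMIs in endothelial cells, or 290.2 and 201 CPM in the red and 5.16 and 3.99 in the white libraries. The 2 zones were far apart, at a red to white ratio of 55.3 (95% counting interval 18.8 to 269) over the pooled libraries and an edgeR log2 fold change of -5.83 ± 0.42 (adjusted p = 8.4e-07). IL6 had 213, 177, 0 and 2 UMIs, or 175 and 105 CPM in the red and 0 and 3.99 in the white libraries, a ratio of 46.7 (interval 12.8 to 387). Its log2 fold change was -5.53 ± 0.52 (adjusted p = 6.96e-06), a value that rests on 2 white UMIs. Without the medial white library the fitted value was -10.16, which depends on the prior count, since the remaining white library was at 0. The 0 of 154 lateral white cells allows a share of up to 1.95% with an IL6 UMI. NFKBIZ was lower by a smaller step, at 557 and 547 CPM in the red and 305 and 317 in the white libraries and -0.98 ± 0.23 (adjusted p = 0.0155), and did not pass with DESeq2 (adjusted p = 0.152).

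The adhesion molecules did not pass in endothelial cells. ICAM1 stood at 240.0 and 214 CPM in the red and 186 and 144 in the white libraries, -0.64 ± 0.22 on the log2 scale (adjusted p = 0.0900). VCAM1 stood at 431 and 228 CPM in the red and 248 and 269 in the white libraries with overlapping zones (-0.38 ± 0.25, adjusted p = 0.377). NFKBIA, TNFAIP3 and SOD2 did not pass either. NFKBIA stood at 2225 and 1596 CPM in the red and 1343 and 1409 in the white libraries (-0.60 ± 0.29, adjusted p = 0.230). TNFAIP3 stood at 84.7 and 69.9 CPM in the red and 31.0 and 59.8 in the white libraries (-0.76 ± 0.31, adjusted p = 0.149). SOD2 stood at 621 and 682 CPM in the red and 553 and 365 in the white libraries (-0.70 ± 0.26, adjusted p = 0.120). Without the lateral white library SOD2 (-1.02, adjusted p = 0.00256) and ICAM1 (-0.84, 0.0173) passed as lower in white, so that 5 genes did. TNFAIP6 was low in all of these cells, at 26.3 and 14.2 CPM in the red and 5.16 and 14.0 in the white libraries, and did not pass (adjusted p = 0.406).

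The endothelial cells of the zones also differed in the genes that mark kinds of vessel. All 14 endothelial markers were detected in the group of every library, and the 13 used for grouping summed to 5660.0, 5365, 7023 and 7427 CPM. ACKR1, known from veins, stood at 402, 542, 36.1 and 27.9 CPM, and the capillary genes FABP4 at 945, 1915, 139 and 11.96 and CD36 at 127, 162, 0 and 0. APLN and ESM1, known from sprouting tip cells, ran the other way at 1.64, 1.19, 129 and 55.8 and at 12.3, 5.93, 92.9 and 83.7. These vessel genes were looked at after the values were seen. PTGS2 and IL6 were also read in endothelial cells without a UMI of ACKR1, SELP, FABP4 or CD36, which made up 41.5 and 25.7% of the group in the red and 89.6 and 93.5% in the white libraries. A PTGS2 UMI was found in 12.8 and 7.76% of these red cells (exact 95% intervals 9.48 to 16.7 and 4.66 to 11.98%) and in 0 and 0.813% of the white ones (a limit of 2.17% for the 0, 3 cells of the total, and an exact upper bound of 2.91% for the other). For IL6 the shares were 9.94 and 7.76% against 0 and 0.813%. The gap was also present in cells without these UMIs, at a median depth of 1006 and 1119.5 red and 954 and 1262 white UMIs per cell. At this depth a UMI is easily missed, so a cell without these UMIs can still be of a vein or capillary kind. The split therefore does not tell kind of vessel and zone apart. Markers of other cells were present in the group. Summed over whole lists, mural markers stood at 249.9, 197, 253 and 448, fibroblast markers at 2895, 3400.5, 3496 and 12386, cartilage markers at 66.6, 51.5, 609 and 345 and fibrochondrocyte markers at 761, 624, 1172 and 3869 CPM. The medial white library was highest for the fibroblast and fibrochondrocyte lists. Over the markers used to group cells, which leave out genes common in every library, mural markers summed to 55.1, 68.1, 15.5 and 33.9, fibroblast markers to 132, 174, 25.8 and 11.96 and cartilage markers to 13.2, 5.33, 217 and 138 CPM. The fibrochondrocyte marker CILP stood at 0, 6.52, 20.7 and 239. Their part in the result was not tested.

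**Figure D4:**
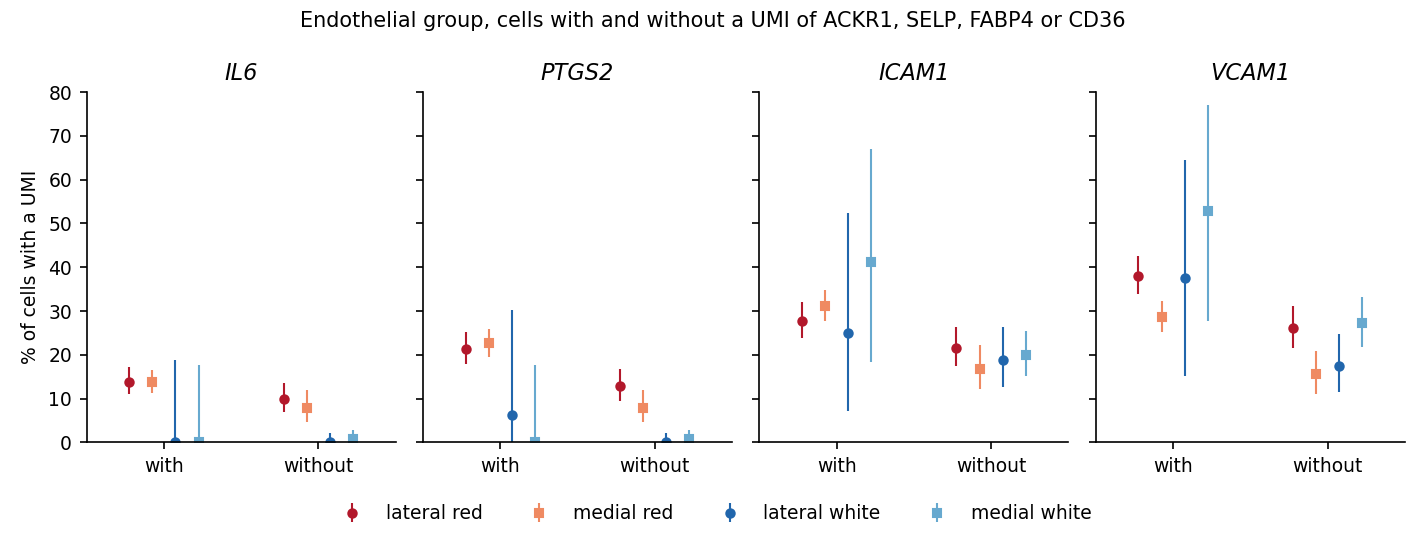
Percentage of endothelial-group cells with a UMI of IL6, PTGS2, ICAM1 or VCAM1 (vertical axis) in each library, split by whether the cell held a UMI of ACKR1, SELP, FABP4 or CD36, with exact 95% binomial intervals, or up to the limit of 3 cells where the share is 0. IL6 and PTGS2 were found in 7.76 to 22.6% of red cells on either side of the split and in at most 6.25% of white cells, 1 cell of 16, while ICAM1 and VCAM1 were found in all 8 classes. White cells with such a UMI numbered only 16 and 17. Their zeros allow shares of up to 18.75 and 17.6%, and the 1 of 16 has an interval of 0.158 to 30.2%. A gap between zones cannot be read from them.

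Myeloid cells were the other group large enough in each library. None of the 8 genes with enough counts passed between zones with edgeR, against a background of 5.92% of 5238 genes, 3.19% lower and 2.73% higher. IL6 and LIF had too few counts. At an unadjusted p below 0.05, 2 passed, beside 16.1% of all genes tested, and with DESeq2 0 passed. With 67 and 50 white cells this test rests on few cells, and it does not show that the levels were equal. VCAM1 stood at 558 and 593 CPM in the red and 1034 and 683 in the white libraries (0.44 ± 0.29, adjusted p = 0.484). SOD2 stood at 1050.4 and 790.2 CPM in the red and 1534 and 1542 in the white libraries (0.63 ± 0.30, adjusted p = 0.265). NFKBIZ stood at 316 and 411 CPM in the red and 541 and 565 in the white libraries (0.50 ± 0.27, adjusted p = 0.368). The inhibitors NFKBIA and TNFAIP3 and the adhesion molecule ICAM1 overlapped between zones. NFKBIA stood at 1237 and 1214 CPM in the red and 1501 and 929.7 in the white libraries, TNFAIP3 at 173, 151, 229.7 and 141, and ICAM1 at 155, 128, 205 and 94.1. PTGS2 was lower in both white libraries, at 61.6 and 40.3 CPM in the red and 24.6 and 11.8 in the white libraries, on 3 and 1 white UMIs (-1.56 ± 0.75, adjusted p = 0.265). TNFAIP6 stood at 62.9 and 48.2 CPM in the red and 73.8 and 153 in the white libraries (0.83 ± 0.43, adjusted p = 0.324). Beside SOD2 and TNFAIP6, which matrix cells also hold, whole-list fibrochondrocyte markers in the myeloid group summed to 708, 749, 1805 and 5684 CPM, fibroblast markers to 1721, 3398, 2642 and 18888 and cartilage markers to 50.5, 117, 829 and 624, and CILP alone to 3.70, 10.1, 57.4 and 494. Their part in these values was not tested.

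Other genes of the NF-kappaB lists did pass in myeloid cells. The chemokine CXCL8 stood at 549.8, 570.5, 2716 and 4613 CPM and was higher in white (2.53 on the log2 scale, adjusted p = 2.02e-11). CXCL2 was higher too, at 1089, 1776, 4143 and 3389 (1.31, 0.00386), as were the inflammatory ligands IL1A, at 41.9, 59.4, 164 and 141 (1.50, 0.00398), and TNF, at 3.70, 21.3, 49.2 and 58.8 (2.06, 0.0159). Of these lists, 2 of 10 inflammatory ligands and receptors and 2 of 13 other target genes were higher, beside 2.73% of all genes, and PLAU was lower (-2.75), beside 3.19%. CXCL8 passed under each alternative run. CXCL2 was lost without the lateral red library (adjusted p = 0.265), and PLAU with DESeq2 (0.240) and without the lateral white library (0.0740). The calls of IL1A and TNF were not stable: 0 of their list passed with DESeq2, without the lateral red or without the lateral white library. TNF was also lost with no filter on low counts, without the replicate block and without the medial white library (adjusted p = 0.206, 0.186 and 0.310). These 5 genes were singled out after their values were seen. Stress genes moved the opposite way in the same cells: 6 of 8 heat-shock and 3 of 8 immediate-early genes were lower in white, with HSPA6 at -2.96 and FOS at -1.70, and their part in the result was not tested. With DESeq2 1 immediate-early gene was lower, and without the medial white library 2 were. HSPA6 was lost with DESeq2 (adjusted p = 0.0528) and stood at -4.76 without the lateral white library. Myeloid markers in the group summed to 22011, 21364, 14554 and 16805 CPM.

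Fibroblast and cartilage groups barely overlapped between zones and could not be tested. Cells rich in matrix transcripts were compared instead, with at least 10 UMIs of 32 matrix genes and at most 1 UMI of each vascular or immune marker list, a class set after the data were seen. It held 2565, 3519, 6757 and 7199 cells and draws on the fibroblast and cartilage groups and on cells in no group. The zones supplied different cells by the markers used to group cells. Over these, fibroblast markers summed to 2835, 4872, 105 and 80.2 and cartilage markers to 767, 138, 7649 and 8413 CPM. Zone and kind of matrix cell therefore cannot be told apart here. The fibroblast sum leaves out genes common in every library, and over all cells the whole fibroblast list was highest in white. So summed, endothelial markers stood at 37.0, 30.5, 15.9 and 13.1, mural at 31.4, 32.5, 6.80 and 7.43 and myeloid at 21.4, 20.2, 2.34 and 2.67.

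Of the 10 genes 7 were lower and 1 was higher in white matrix cells, against a background of 33.2% of 11451 genes, 18.4% lower and 14.7% higher. Over all genes 1688 were higher and 2109 lower, or 907 and 3590 without TMM scaling, under which TNFAIP6 also passed (-0.76, adjusted p = 0.0228). IL6 stood at 143 and 61.6 CPM in the red and 6.17 and 1.37 in the white libraries (-4.56 ± 0.27, adjusted p = 8.16e-07). VCAM1 stood at 158 and 143 CPM in the red and 23.9 and 4.69 in the white libraries (-3.40 ± 0.42, adjusted p = 9.18e-05, or -2.25 without the medial white library). The genes that act on the pathway itself fell together: NFKBIA stood at 902 and 673 CPM in the red and 275 and 155 in the white libraries (-1.58 ± 0.26, adjusted p = 0.000680).

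NFKBIZ stood at 291 and 268 CPM in the red and 114 and 99.8 in the white libraries in matrix cells (-1.05 ± 0.21, adjusted p = 0.00299), and TNFAIP3 at 17.5 and 15.4 CPM in the red and 4.22 and 3.46 in the white libraries (-1.77 ± 0.26, adjusted p = 0.000351). The NFKBIA and NFKBIZ calls were lost without the lateral red library (adjusted p = 0.0573 and 0.0558). SOD2 was the gene that rose, at 915 and 503 CPM in the red and 2481 and 1252 in the white libraries (1.71 ± 0.30, adjusted p = 0.00103), with calls lost without the medial red (1.34, adjusted p = 0.189) or the lateral white library (1.09, 0.0642). PTGS2 differed least of the genes that passed, at 94.6 and 84.9 CPM in the red and 55.1 and 40.3 in the white libraries (-0.59 ± 0.20, adjusted p = 0.0372), and its call was lost with DESeq2 (0.224) and without the lateral red (0.361), medial red (0.222) or medial white library (-0.30, 0.353). LIF rested on 3 and 1 white UMIs (-3.09 ± 0.81, adjusted p = 0.0125), and its call was lost with DESeq2 (0.142) and without the medial white library (0.105). ICAM1 was low in matrix cells of both zones, at 18.4 and 17.2 CPM in the red and 22.0 and 8.52 in the white libraries, and TNFAIP6 stood at 392 and 269 CPM in the red and 174 and 212 in the white libraries. Neither passed, with -0.025 ± 0.29 (adjusted p = 0.955) for ICAM1 and -0.42 ± 0.25 (adjusted p = 0.221) for TNFAIP6.

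**Figure D5:**
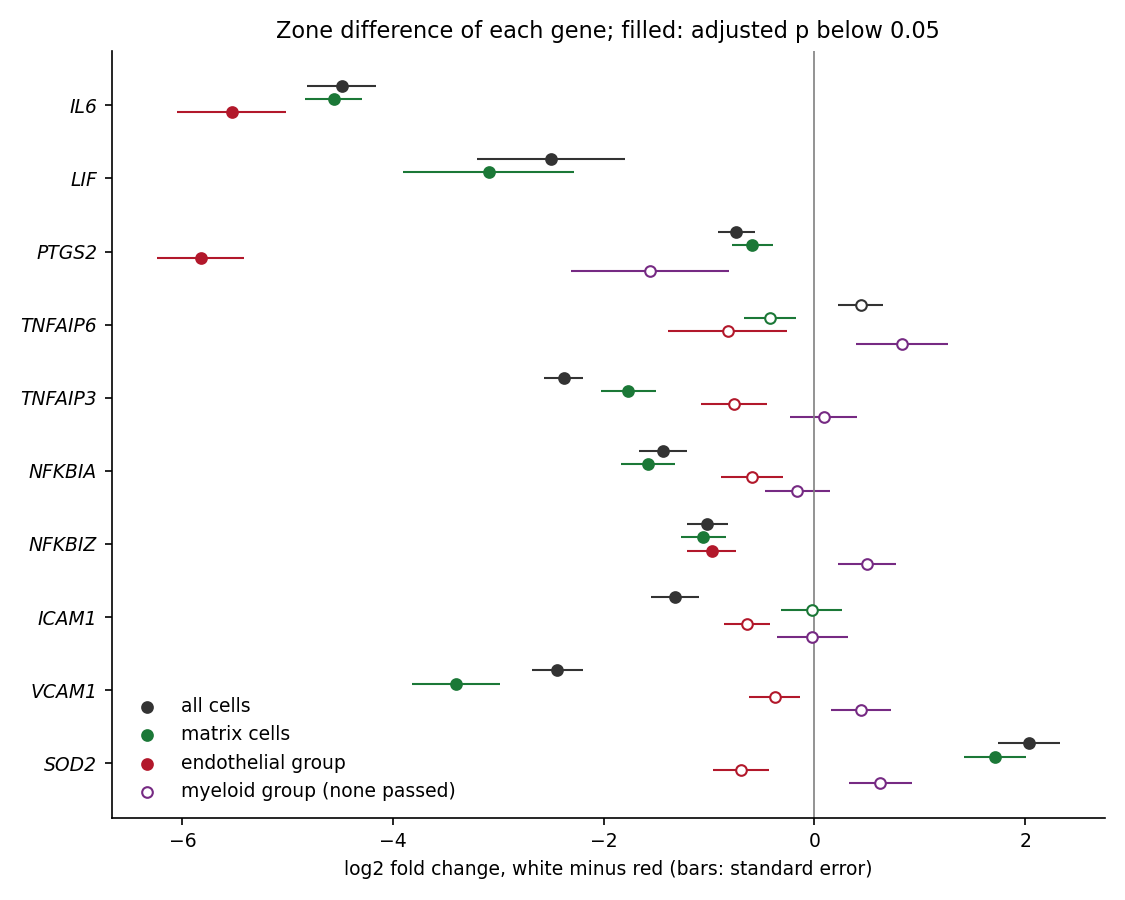
log2 fold change, white minus red (horizontal axis, bars show the standard error), of each gene over all cells, in matrix cells and in the endothelial and myeloid groups, with filled points for an adjusted p below 0.05. PTGS2 reached -5.83 in endothelial but -0.59 in matrix cells, VCAM1 -3.40 in matrix but 0.44 in myeloid cells, and SOD2 was positive in matrix and negative in endothelial cells.

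Whether the zone difference itself differed between cell groups was tested with edgeR in a model with a term for each library, the groups of 1 library being paired. This test was added after the data were seen, and its values are zone differences (white minus red) in the second group minus those in the first. Between endothelial and matrix cells, where 13.9% of genes passed, PTGS2 fell far more in endothelial cells, by 5.29 ± 0.47 on the log2 scale (adjusted p = 1.55e-08). SOD2 differed by 2.43 ± 0.30 (adjusted p = 3.19e-06), with a positive zone difference in matrix and a negative one in endothelial cells. VCAM1 went the opposite way, with a deeper fall in matrix cells, at -3.00 ± 0.43 (adjusted p = 2.02e-05), or -1.55 without the medial white library. NFKBIA differed by -0.95 ± 0.27 (adjusted p = 0.0195), which was lost without the medial white (-0.25, 0.714), lateral red (0.149) or medial red library (0.0744). IL6 showed no difference that passed (0.98 ± 1.02, 0.603).

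Between myeloid and matrix cells (6.32% of genes passed), VCAM1 differed most of the genes that passed, by -3.55 ± 0.29 (adjusted p = 6.4e-30). This p rests on a spread pooled over all genes tested rather than on that of VCAM1 alone. IL6, at 4.71 ± 7.78, did not pass (adjusted p = 0.869). TNFAIP3 (-1.67 ± 0.40, 0.00112), NFKBIA (-1.23 ± 0.29, 0.00106) and NFKBIZ (-1.37 ± 0.29, 0.000159) were also lower in white in matrix relative to myeloid cells, and SOD2 was higher (1.26 ± 0.30, 0.000985). Of these, VCAM1 passed with any single library left out. TNFAIP3 was lost without the lateral red (0.143), medial red (0.107) or lateral white library (0.179). NFKBIA was lost without the lateral red (0.391) or medial white library (0.133), and so was NFKBIZ (0.293 and 0.0706). SOD2 was lost without the medial red (0.108) or lateral white library (0.374) and without TMM scaling (0.187). Between endothelial and myeloid cells (2.52%), NFKBIZ (1.27 ± 0.26, 0.000168) and SOD2 (1.13 ± 0.21, 2.34e-05) differed, both higher in white myeloid relative to endothelial cells. NFKBIZ was lost without either lateral library (0.0573 and 0.0630) and SOD2 without either medial one (0.256 and 0.135).

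The zones also differ in the cells they hold, so the red level of each gene was recomputed with the share of UMIs that each marker group had in the white library of the same meniscus, as a description. The red to white ratio of IL6 went from 22.0 to 6.15 in the lateral and from 55.2 to 33.3 in the medial meniscus. For ICAM1 it went from 2.73 to 0.703 and from 4.55 to 1.94, which reverses the lateral gap. VCAM1 went from 5.85 to 1.95 and from 10.0 to 4.62, PTGS2 from 2.17 to 1.26 and from 2.56 to 1.38, and SOD2 from 0.289 to 0.504 and from 0.408 to 0.448. These values lean on the 74 and 35 cartilage cells of the red libraries, which take the weight of the largest named white group. They also lean on cells in no group, which held 37.2 and 52.5% of the lateral and medial white UMIs. Such cells were matched as 1 kind although their make-up is not known, so the recomputed ratios may not even out cell make-up.

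Between medial and lateral menisci none of the 10 genes passed with edgeR over all cells, where 0.024% of genes did. At an unadjusted p below 0.05, 6 of the 10 did, beside 6.67% of all genes tested, each lower in the medial meniscus. These 6 are not independent of each other, since they come from the same 4 libraries. IL6 had the lowest p, with a log2 fold change, medial minus lateral, of -1.37 ± 0.30 (adjusted p = 0.410), and passed with DESeq2 (-1.49, adjusted p = 0.0147) and with no filter on low counts (-1.37, 0.000222). SOD2 (-0.83 ± 0.28, adjusted p = 0.626) and VCAM1 (-0.68 ± 0.23, adjusted p = 0.630) did not pass.

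The rest of the pathway was read over all cells from gene lists, beside 17.4% of all genes higher and 21.8% lower in white. Of 5 NF-kappaB subunits 2 were lower and 0 higher: NFKB1 at 96.1, 99.2, 33.0 and 41.1 CPM (-0.91 on the log2 scale) and REL at 349, 331, 137 and 132 (-0.85). The count was 1 with either red library left out, where REL was lost (adjusted p = 0.0817 without the lateral and 0.0541 without the medial one), and 3 without the lateral white library. Of 14 kinases and adaptors 4 were lower and 0 higher, a list median of -0.24, but 1 was lower with DESeq2 and with either red library left out and 2 without the replicate block. The inhibitors and feedback genes beyond the 3 described above were counted likewise, with 8 of 11 lower and 0 higher. Among them were NFKBIB (-1.22), BIRC2 (-1.16), CYLD (-1.07) and TNIP1 (-1.07), of which CYLD was lost without the lateral red library. Of 18 other target genes 12 were lower and 3 higher, or 1 higher without the medial red library and without TMM scaling, and 2 higher without the replicate block, the lateral red or the lateral white library. PLAU, the urokinase gene, stood at 400.4, 375, 7.51 and 8.92 CPM (-5.07), and the chemokines CCL2 and CXCL2 changed by -2.89 and -2.89. Without TMM scaling the counts lower rose to 4 of 5 subunits, 9 of 14 kinases and adaptors and 7 of 11 IL-6 family genes, and NFKB1 and REL stood at -1.40 and -1.34.

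Genes up- and downstream of the 10 moved in both directions. Of 13 inflammatory ligands and receptors 6 were lower and 2 higher in white: the interleukin-1 receptor IL1R1 stood at 78.3, 87.6, 27.7 and 30.5 CPM (-1.02), while IL18 (1.42) and the co-receptor IL1RAP (1.30) were higher (0.93 and 0.81 without TMM scaling). Without either red library 4 were lower. In the IL-6 family 3 of 11 were lower and 2 higher, with the feedback inhibitors SOCS3 at -1.37 and SOCS1 at 1.56, or 0.87 without the lateral white library. The 3 lower became 1 with DESeq2 and with either red library left out and 2 without the replicate block. Around PTGS2, 5 of 12 prostaglandin genes were lower and 3 higher. The synthase PTGES stood at 18.1, 14.9, 68.2 and 37.5 CPM and was higher in white (2.12), as was prostacyclin synthase PTGIS (1.25, or 0.76 without TMM scaling), but the receptors PTGER4, at 99.2, 92.9, 6.63 and 4.56 (-3.63), and PTGFR (-1.89) were lower. Around TNFAIP6, 4 of 6 hyaluronan partners were lower and 1 higher, with CD44 at -1.13 and versican, VCAN, at -1.34.

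Around SOD2, more genes of the antioxidant list were higher than lower in white. Of 12 genes that handle superoxide and peroxide 8 were higher and 2 lower in white, a list median of 1.01, or 5 higher and 3 lower without TMM scaling and 5 higher and 1 lower without the medial red library. Extracellular SOD3 stood at 208, 242, 757 and 748 CPM (2.24), cytosolic SOD1 at 209, 197, 527 and 467 (1.79) and PRDX5 at 66.6, 62.5, 227 and 137 (1.94), whereas catalase, CAT, was lower (-1.65). Of the 7 integrin partners of ICAM1 and VCAM1 6 were lower and 0 higher, or 4 lower without the lateral red library. Genes known to respond to dissociation and stress moved in the direction of IL6: 7 of 9 immediate-early genes were lower in white and 0 higher, with ATF3 at 559, 589, 70.0 and 63.2 CPM (-2.62) and MYC at -2.01, and 3 of 8 heat-shock genes were lower, with HSPA6 at 288, 219, 34.3 and 23.0 (-2.67). The immediate-early count fell to 4 with either red library left out, and 1 gene of that list was higher with DESeq2, with no filter on low counts and without the lateral white library. The heat-shock count was 2 with either red library left out, 5 without TMM scaling and 4 lower and 1 higher with DESeq2. Their part in the zone differences was not tested. In endothelial cells, where PTGS2 and IL6 were also lower, 0 of 9 immediate-early and 1 of 8 heat-shock genes were lower in white, beside 4.83% of all genes, and FOS stood at 699, 739, 749 and 893. Without the lateral white library the counts were 1 and 3, and without the lateral red library 0 and 2.

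Other genes of the lists were also lower in white endothelial cells, where 4.83% of all genes were. The alarmin IL33 stood at 149.6, 158, 5.16 and 3.99 CPM in them (adjusted p = 2.48e-06), with 1 and 2 white UMIs, and IL1R1 at 141, 178, 36.1 and 27.9 (-2.60, 8.26e-05), and both passed under each alternative run. In the IL-6 family 4 of 8 genes were lower and 0 higher, with the receptor LIFR at 176, 174, 82.6 and 53.8 (-1.60, 0.00142) and SOCS3 at 136, 88.9, 62.0 and 51.8 (-1.08, 0.0196). The count was 0 with DESeq2 and 2 without the lateral red and 2 without the medial white library, and SOCS3 was lost in all 3 (adjusted p = 0.486, 0.119 and 0.210) and LIFR with DESeq2 (0.0662). Of 14 other target genes 4 were lower and 0 higher, among them TRAF1 (-2.39) and IER3 (-1.14). This count ran from 1 without the medial white library to 7 without the lateral white library and was 0 with DESeq2, where TRAF1 and IER3 were lost (adjusted p = 0.285 and 0.107). TRAF1 was also lost without the medial white library (0.128). IL33 and the endothelial genes of this paragraph were chosen after their values were seen.

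As a description, profiles were compared over 23 sums of library by marker group, with Pearson's r on log2(CPM + 20), among genes with a mean of at least 20 CPM. The sums share libraries and cell types, so no test is attached. IL6 was most like FAM13C (r = 0.89), PDK4 (r = 0.88), AKAP12 (r = 0.87), and PTGS2 like CFI (r = 0.80), IL6 (r = 0.78), ADM (r = 0.77). NFKBIA and NFKBIZ shared the chemokine CXCL2, NFKBIA being most like BST2 (r = 0.91), IFI44L (r = 0.90), CXCL2 (r = 0.89) and NFKBIZ most like AKIRIN2 (r = 0.93), CXCL2 (r = 0.93), SDCBP (r = 0.92). VCAM1 also had it, among CXCL2 (r = 0.92), SCARB2 (r = 0.91), TXNRD1 (r = 0.90). TNFAIP6 was most like THBS2 (r = 0.93), PCOLCE (r = 0.90), TGFBI (r = 0.90). SOD2 was most like TSPAN31 (r = 0.90), MT1X (r = 0.89), MTURN (r = 0.87), ICAM1 like PLXND1 (r = 0.94), TXNL1 (r = 0.93), TCN2 (r = 0.92), and TNFAIP3 like CYTH1 (r = 0.96), CBLB (r = 0.93), IFNGR1 (r = 0.92). LIF, with a mean of 1.21 CPM, was too low for its profile to be read.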

How the data were processed

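Cells of pig meniscus were measured by 10x Genomics 3' single-cell RNA sequencing in 4 libraries. Deposited values are raw UMI counts for each gene in each barcode. The submitters' processing notes name Cell Ranger 6.1.2 and the build Sscrofa11.1. The annotation release is not given in the sources used here. The matrices already left out barcodes under 500 UMIs, a floor that can remove small or RNA-poor cells. A barcode needed 500 UMIs, 200 detected genes and no more than a 20% share of the 13 mitochondrial genes, which left 27693 of 27782.

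The members and lists were chosen with earlier results of these data known, and the grouping rule after marker detection was seen. Genes named by rule are the 10 members, up to 4 genes of each list with the lowest p between zones and at least 20 CPM, and the 3 most alike profiles of each member. Outside this rule, CXCL8, IL1A, TNF and FOS in myeloid cells were picked by hand. So were IL33, TRAF1, IER3 and FOS in endothelial cells, and the vessel genes. Markers found in over 5% of cells of every library were not used for grouping, and no doublet caller was run. Barcodes that reached the cut for several vascular or immune lists, or for a matrix list with at least as many UMIs, were set apart. Counts were summed per library and group and tested with edgeR 4.0.16 (TMM, filterByExpr, quasi-likelihood F test, zone plus meniscus, leaving 1 residual degree of freedom) in R 4.3.3. Groups needed at least 50 cells in every library, so the mural, fibroblast and cartilage groups were not tested. The meniscus term pairs the red and white library of each meniscus, as the labels name them; whether they share an animal is not given in the sources used here. Alternatives were DESeq2 1.42.0, no TMM, no filter, zone alone, each library left out with 1 term, a marker cut of 5 UMIs, removal of mixed barcodes and thinning to 1000 UMIs. The pipeline was tested on simulated counts with planted zone changes, in at most 100 genes each of 2-fold and 4-fold. More genes than that passed between zones in the data, so the simulation does not cover a shift of that breadth. Genes without a planted change were called 8 times over all cells, 3 in matrix, 11 in endothelial and 1 in myeloid cells. Of 2-fold changes it found 70 of 100 over all cells and 58 of 100 in matrix cells. It found 42 of 100 in endothelial and 9 of 95 in myeloid cells. Of 4-fold changes it found 87 of 100 in endothelial and 60 of 91 in myeloid cells, so smaller differences can be missed there. Genes of the lists with no feature of that symbol were not used here.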

Additional observations from a re-analysis of the deposited data

Results flagged for a closer look

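The zone difference (log2, white minus red) differed between cell groups for several of the genes, by the edgeR test of the difference itself. Matrix minus endothelial cells gave 5.29 for PTGS2, 2.43 for SOD2, -0.95 for NFKBIA and -3.00 for VCAM1. Matrix minus myeloid cells gave -3.55 for VCAM1, -1.67 for TNFAIP3, -1.37 for NFKBIZ, -1.23 for NFKBIA and 1.26 for SOD2. Myeloid minus endothelial cells gave 1.27 for NFKBIZ and 1.13 for SOD2. Adjusted p-values stand in the text above.

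In 6 cases the zone difference had opposite signs in the lateral and medial meniscus, with 1 library on each side, so this difference was not tested. Medial minus lateral, TNFAIP6 over all cells differed by 0.70, from -0.40 in the lateral to 0.30 in the medial meniscus. VCAM1 in endothelial cells differed by 1.04, from -0.79 in the lateral to 0.24 in the medial meniscus. In myeloid cells TNFAIP3 differed by -0.51, from 0.41 in the lateral to -0.099 in the medial meniscus, NFKBIA by -0.66, from 0.28 in the lateral to -0.38 in the medial meniscus and ICAM1 by -0.84, from 0.40 in the lateral to -0.44 in the medial meniscus. ICAM1 in matrix cells differed by -1.19, from 0.25 in the lateral to -0.94 in the medial meniscus. None of the 6 zone differences passed the test over both menisci.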

How the results depend on the processing

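The count of the 10 genes that passed between zones over all cells was 9, and 7 to 9 over the alternatives. It was 9 without the replicate block (zone alone, the red and white libraries of a meniscus unpaired), 8 with DESeq2 and 7 to 9 with 1 library left out. Between menisci the count of 0 was 0 without the block and with each library left out, and became 1 with DESeq2 and 1 with no filter on low counts, IL6 in both. In endothelial cells the count of 3 ran from 3 to 5 with 1 library left out, 5 without the lateral white library, and was 3 without the block. It was 2 with DESeq2 and 4 with no filter. In myeloid cells it was 0 under each alternative run, the block included. In matrix cells the count of 8 was 7 without the block, 6 with DESeq2, 9 without TMM and 5 to 7 with 1 library left out, 5 with either red library left out. No zone difference that passed changed sign under the alternatives run. Of the values of the 10 genes under the alternatives, 19 lost and 6 gained the threshold, and of those on differences between cell groups, 17 lost and 4 gained it. Over all genes, calls between zones fell from 4901 to 3267 with DESeq2 and to 2847 and 2475 without the lateral or medial red library. In endothelial, myeloid and matrix cells DESeq2 gave 112, 71 and 1890 in place of 613, 310 and 3797. LIF in matrix cells could not be tested without the medial red library. Mural, fibroblast and cartilage alternatives were not run, since those groups had under 50 cells in at least 1 library. With 1 residual degree of freedom, 2 libraries per zone and no animals named, the tests rest on little replication, LIF and white endothelial PTGS2 and IL6 rest on single UMIs, and the cause of the lost calls was not tested.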
